A study of Mus musculus with 9 samples.

Results

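The 9 genes described here are 3 E protein genes (Tcf3, Tcf4 and Tcf12), 2 Id protein genes (Id2 and Id3), the TCF1 and LEF1 genes (Tcf7 and Lef1), and Bach2 and Satb1. They were taken by gene symbol from a table of 41978 genes, and each of the 9 symbols was present. All 9 were among the 30693 genes that reached 1 TPM (reads scaled to gene length and library size) in 3 or more samples, which were the genes tested. The samples were semimature CD4 single-positive (SP4) thymocytes from mice carrying the Nur77-eGFP BAC transgene, in which Nr4a1 regulatory sequence drives eGFP after T cell receptor (TCR) signaling. Live CD25- CD69+ CD24+ CD4+ CD8- thymocytes were sorted into the lowest, a middle and the highest 10% by GFP (GFPlo, GFPmed and GFPhi), about 10000 cells at a time, with 3 biological replicates of each. All 3 groups thus shared the transgene, the tissue and the gate, and no sample came from mice without the transgene. The labels give no age. The study's main text describes the sorted cells as low for CD24, whereas its methods describe them as high. The comparison asks how transcripts differ between thymocytes that carry little, intermediate and much of the TCR-driven reporter.

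E proteins are basic helix-loop-helix transcription factors that bind E-box sequences as dimers. Id proteins pair with them but have no DNA-binding region, so that an E protein bound by an Id protein is kept off DNA; in the thymus this pairing tunes the checkpoints at which TCR signals act, and Id3 is a known target of ERK and EGR factors downstream of the TCR. TCF1, encoded by Tcf7, and LEF1 are related HMG-box factors that support T lineage identity and CD4 T cell development. BACH2 is a repressor that holds back effector genes at AP-1 sites, and SATB1 is a chromatin organizer of thymocytes.

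Between GFPlo and GFPhi, Id2 transcript fell 6.30-fold while Id3 rose 2.16-fold, Satb1 fell 2.59-fold and Lef1 fell 1.85-fold. Tcf7, the relative of Lef1, differed little. Of the E protein genes, Tcf3 was 1.32 times as high in GFPhi but did not pass the test, and Tcf12 and Tcf4 did not pass either. For the 4 genes that changed, the GFPmed mean lay between the other groups and closer to GFPlo. A test of GFPmed against the midpoint of GFPlo and GFPhi called none of them in the main fit.

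RefSeq promoter windows of GRCm38.p6, covering 250 bases before and 50 after each annotated start, were given for 8 of the 9 genes. They numbered 18, and Tcf4 had none. For Id2, Lef1 and Satb1, the genes that fell together, 7 stretches lay ahead of an annotated start and outside GENCODE exons. Of these, 4 are shown, with at least 1 for each gene, and not all of them lie upstream of the whole gene. Those not shown are Lef1 chr3:131110073-131110322, which overlaps the first Lef1 stretch, Lef1 chr3:131112541-131112790 and Satb1 chr17:51832673-51832897. Each is written 5′ to 3′ on the gene's own strand. Capitals mark matches, on either strand, to the general E-box CANNTG or to the TCF1/LEF1 core CTTTGA (read as TCAAAG on the other strand). The forms CAGCTG and CAGGTG are the E-boxes taken here for E proteins. Other marked E-boxes match only the general pattern. The Id2 stretch is chr12:25096254-25096342, minus strand, inside the gene's GENCODE span but outside its exons. It lies ahead of a start inside the gene and is not sequence upstream of the gene. The first Lef1 stretch is chr3:131110047-131110296, plus strand, ahead of the gene's first GENCODE base. The internal Lef1 stretch is chr3:131156044-131156293, plus strand, ahead of a start inside the gene. The Satb1 stretch is chr17:51833291-51833540, minus strand, immediately ahead of the gene.
Id2: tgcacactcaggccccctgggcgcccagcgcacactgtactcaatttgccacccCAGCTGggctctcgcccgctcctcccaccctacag
Lef1, first start: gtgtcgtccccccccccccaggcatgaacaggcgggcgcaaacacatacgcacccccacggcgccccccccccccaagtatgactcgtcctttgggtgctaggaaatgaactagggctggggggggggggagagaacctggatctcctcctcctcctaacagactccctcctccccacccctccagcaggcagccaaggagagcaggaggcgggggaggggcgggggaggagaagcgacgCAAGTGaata
Lef1, internal start: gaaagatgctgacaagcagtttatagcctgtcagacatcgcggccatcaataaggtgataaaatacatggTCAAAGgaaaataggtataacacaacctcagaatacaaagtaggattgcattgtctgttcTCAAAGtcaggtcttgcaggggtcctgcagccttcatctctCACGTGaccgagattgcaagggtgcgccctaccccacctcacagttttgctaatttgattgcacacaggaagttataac
Satb1: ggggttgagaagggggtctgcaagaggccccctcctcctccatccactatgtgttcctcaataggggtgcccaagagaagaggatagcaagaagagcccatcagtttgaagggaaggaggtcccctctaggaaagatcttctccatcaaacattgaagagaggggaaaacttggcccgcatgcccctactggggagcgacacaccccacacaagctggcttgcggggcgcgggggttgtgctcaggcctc

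The Id2 stretch held 1 E-box, of the form CAGCTG, 196 bases ahead of the start, and the first Lef1 stretch held 1 E-box 10 bases ahead of it. The internal Lef1 stretch held the TCF1/LEF1 core at 180 and 120 bases ahead and an E-box at 79. The Satb1 stretch shown held neither motif. Of those not shown, the Lef1 stretch at chr3:131112541-131112790 held the form CAGCTG 205 bases ahead of its start and another E-box at 157. Over the whole windows, which include exonic bases, some E-box was found in 15 of the 18 windows, Satb1 included, and in 72.3% of the 32851 windows of the table. The form CAGCTG was found in 5 of 18, from Id2, Lef1, Satb1, Tcf12 and Tcf7, and in 16.3% of all, and the TCF1/LEF1 core in 2 of 18, 1 each of Lef1 and Bach2, and in 16.0% of all.

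Other motifs were searched on both strands of the same windows. The E-box form CAGGTG, counted again among all E-boxes, occurred in 4 of 18 windows, from Lef1, Satb1 and Tcf7, and 20.2% of all. The AP-1/BACH2 site TGAGTCA occurred in 1 of 18 windows and 5.20% of all, and the NR4A site AAAGGTCA in 2 of 18 and 1.51% of all.

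The EGR site GCGTGGGCG occurred in 0 of 18 windows and 0.612% of all. Its shorter form GTGGGCG, which overlaps it, occurred in 2 of 18, from Satb1 and Tcf3, and 7.97% of all. These are matches of letters and say nothing about binding.

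The table covered 7465552 to 14943774 reads on genes per sample, with a median of 9426281, and 23486 to 29902 genes per sample had a TPM of at least 1. Nr4a1, whose regulatory sequence drives the reporter, had a TPM of 217 ± 32.1 (SD, n = 3) in GFPlo, 374 ± 28.6 in GFPmed and 840 ± 75.0 in GFPhi, and its ranges did not overlap between groups. All 12 SP4 markers were above 5 TPM in at least 1 sample, and Cd4 was at 582, 562 and 474 TPM in GFPlo, GFPmed and GFPhi. By adjusted p, 2 of the 12 differed between GFPhi and GFPlo, where 2.38% of all genes tested were higher and 1.51% lower. Cd69, a marker of the gate, fell from 375 to 216 TPM (log2 -0.79, adjusted p 0.0142). Cd5, a negative regulator of TCR signaling, rose from 193 to 592 TPM (log2 1.61, adjusted p 0.000188). Markers of regulatory T cells moved with the reporter: 5 of 6 were called higher in GFPhi, where 1.26% of all genes tested were. Their summed TPM ran from 183 to 203 in GFPlo, 354 to 434 in GFPmed and 765 to 883 in GFPhi. Tnfrsf18 alone accounted for most of that sum, with means of 175 TPM in GFPlo and 716 in GFPhi. The defining marker Foxp3 was at 6.75, 6.33 and 15.7 TPM. Of 6 tested markers of CD4+CD8+ or CD8 single-positive thymocytes, 3 were lower in GFPhi by adjusted p alone, where 1.51% of all genes were. The sum over the list ran from 58.8 to 61.8 TPM in GFPlo and from 27.9 to 36 in GFPhi. Zbtb16, which defines invariant NKT cells, and Pax5 and Ebf1, which define B cells, were under 1 TPM in every sample, with 341, 192 and 414 reads over all samples together. These levels and sums are on the TPM of the table, whose length includes introns. The part of these other cells in the results below was not tested. As the samples were bulk, fewer cells of a kind and less RNA per cell cannot be told apart.

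TPM in the table was computed on a length that includes introns. Levels of the 9 genes are therefore compared with each other as RPKM over exonic length. This is reads per kilobase of exon, scaled to the library's total. That length joins the exons of all annotated transcripts of a gene. It was 1791 bases for Id3 and 2438 for Id2, but 15529 for Tcf12, 19027 for Satb1 and 27382 for Tcf4. A single transcript can be shorter, so levels on this scale, and ratios between genes, are not counts of transcripts. On that scale Tcf7 was the most abundant of the genes, with a mean of 946 over the 9 samples and a range of 809 to 1043. Satb1 (239, range 124 to 335) and Lef1 (238, range 152 to 328) came next, with nearly equal means over the 9 samples. Id2 followed at 144, with the widest range, 35.2 to 252, and Id3 at 102, with a range of 67.1 to 167. Over the 9 samples together, the ranges of Satb1, Lef1, Id2 and Id3 all overlapped. Tcf3 had 50.3 RPKM (38.1 to 59.9), Bach2 had 29.3 (25.9 to 32.2), Tcf12 had 7.88 (7.51 to 8.58) and Tcf4 had 1.82 (1.4 to 2.64). Below Id3 each gene's range was clear of that of its neighbour. The order of several genes depended on the group. Id2 stood above Tcf3 in every GFPlo sample and below Tcf3 in every GFPhi sample. Lef1 (152 to 172) stood above Satb1 (124 to 130) in every GFPhi sample, whereas the GFPlo samples of these genes overlapped. Id3 stood below Satb1 in every GFPlo sample (67.1 to 71.8 against 324 to 335). In every GFPhi sample Id3 (139 to 167) stood above Satb1.

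**Figure D1:**
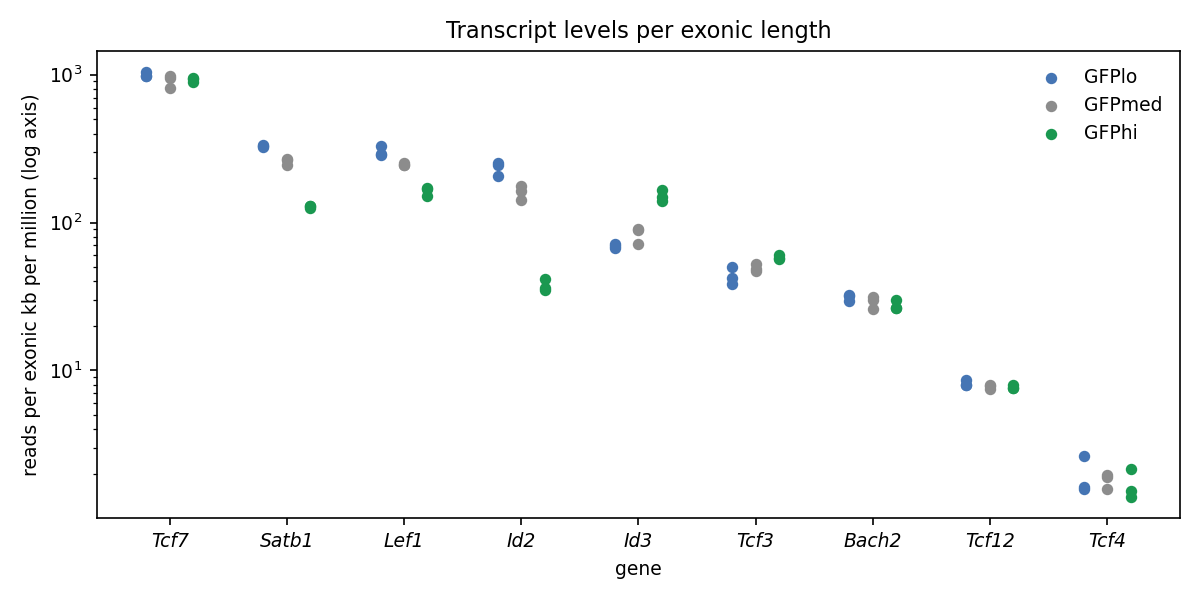
RPKM over exonic length of the 9 genes in each of the 9 samples, on a log axis; each point is 1 sample, coloured by group. Tcf7 lies between 809 and 1043 in every sample, whereas Id2 runs from 35.2 to 252 and in GFPhi lies below Tcf3.

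Calls were made by limma on log2(TPM + 1) over all 9 samples, with p-values adjusted over all genes tested by the Benjamini-Hochberg method. A gene was called at an adjusted p of at most 0.05 with a log2 fold change of 1 or more in either direction, the study's own limits, and was also counted at the adjusted p alone. Between GFPhi and GFPlo, 1 of the 9 genes (Id3) was called higher, where 1.26% of all genes tested were, and 2 (Id2 and Satb1) were called lower, where 0.404% were. By adjusted p alone 1 was higher, against 2.38% of all genes, and 3 were lower, with Lef1 added, against 1.51%. In 7 of the 9 the GFPlo and GFPhi samples did not overlap, which held for 18.2% of all genes tested. The median log2 fold change of the 9 was -0.13, beside -0.09 for all genes tested. The replicates are labelled as biological, but whether they came from separate mice or pools of mice is not stated.

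**Figure D2:**
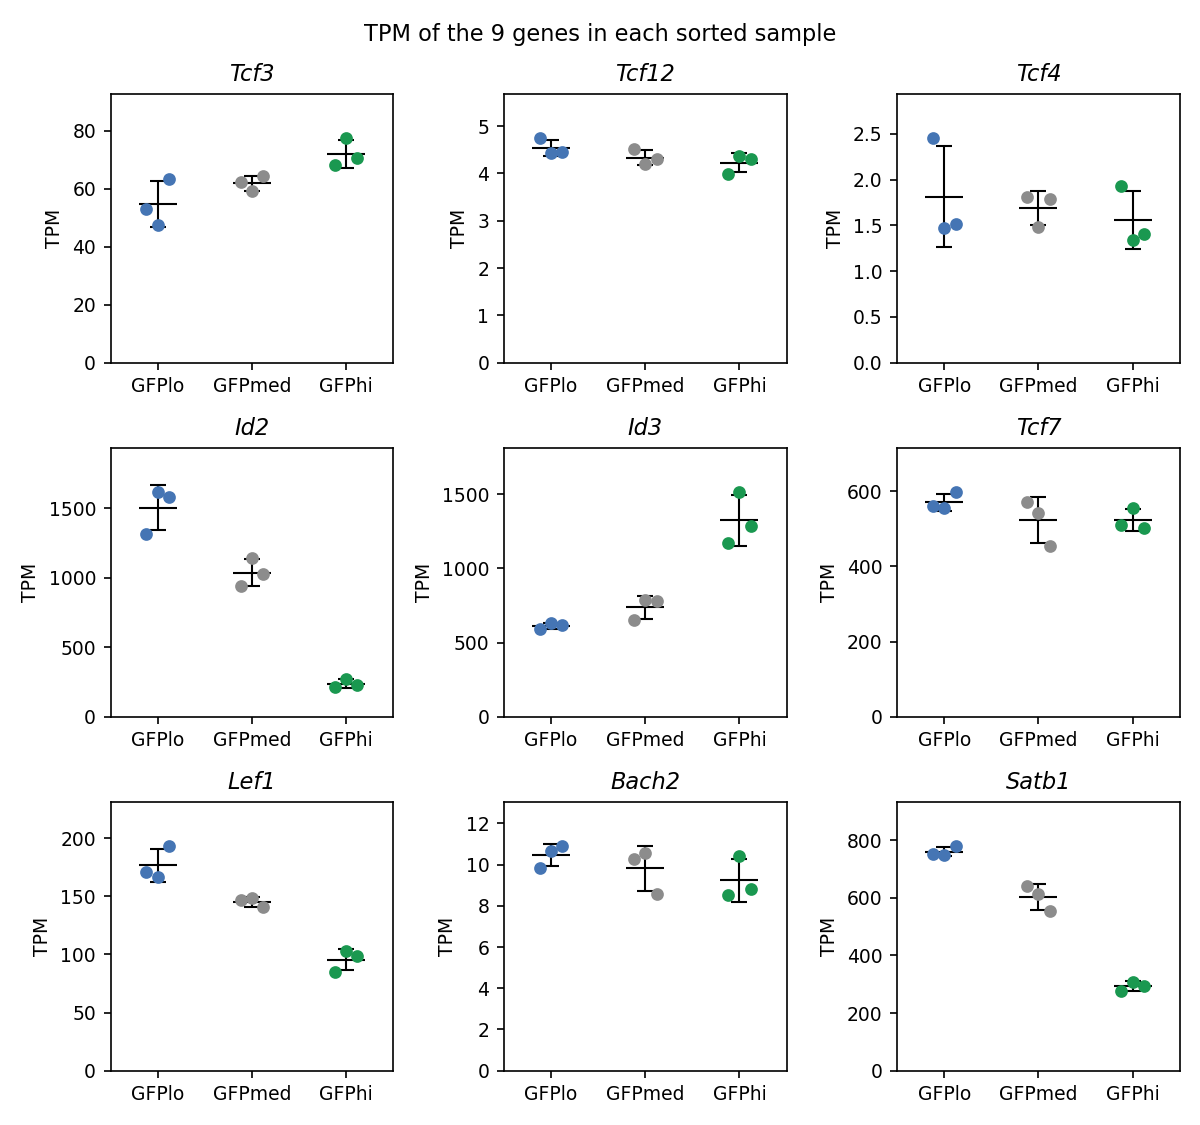
TPM of each of the 9 genes (linear axes from 0), with 1 point per sample, a horizontal bar for the group mean and error bars of 1 SD (n = 3). Id2, Satb1 and Lef1 are lowest and Id3 is highest in the 3 GFPhi samples, and for these 4 genes the GFPhi points stand clear of both other groups.

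Among the E protein genes, Tcf3, which encodes the E2A proteins E12 and E47, had 52.9, 47.6 and 63.3 TPM in GFPlo replicates 1 to 3, 62.4, 59.2 and 64.3 in GFPmed, and 68.1, 77.4 and 70.8 in GFPhi. Every GFPhi sample was above every GFPlo and GFPmed sample, but GFPlo and GFPmed overlapped. The means were 54.6 ± 7.96, 61.9 ± 2.59 and 72.1 ± 4.78 (SD, n = 3). The GFPhi to GFPlo difference was 0.40 on the log2 scale (SE 0.11, 95% interval 0.15 to 0.66), with a limma adjusted p of 0.112. It passed the adjusted p without GFPlo replicate 3, at 0.0484, and in the read-based limma-voom fit with library totals, at 0.00231. With the authors' size factors it did not pass, at 0.165. A further limma-voom fit with trimmed-mean (TMM) scaling, tried and then left out, also put it past the adjusted p.

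Tcf12, which encodes HEB, the partner of E2A in thymocytes, had 4.74, 4.43 and 4.45 TPM in GFPlo, 4.51, 4.19 and 4.30 in GFPmed, and 3.999, 4.38 and 4.31 in GFPhi. GFPhi lay just below GFPlo, with a log2 difference of -0.08 (95% interval -0.46 to 0.29, adjusted p 0.907). Tcf4, which encodes E2-2, a factor best known from plasmacytoid dendritic cells, had 2.45, 1.47 and 1.51 TPM in GFPlo, 1.81, 1.48 and 1.79 in GFPmed, and 1.93, 1.35 and 1.4 in GFPhi. Its groups overlapped, and replicate 1 was the highest in each. The log2 difference was -0.13 (95% interval -0.63 to 0.38, adjusted p 0.890). At so few TPM the added 1 shrinks a change, so the read-based values are given too: with library totals they were -0.09 for Tcf12 and -0.15 for Tcf4. With the authors' size factors the Tcf12 value turned to 0.0019, so it has no settled sign. Reads per sample ran from 913 to 1837 for Tcf12 and from 386 to 775 for Tcf4. On the exonic scale the 3 E protein genes summed to 53.8 ± 6.14 RPKM in GFPlo, 58.8 ± 3.0 in GFPmed and 67.6 ± 1.25 in GFPhi, and Tcf3 made up 81.0%, 83.7% and 86.1% of the sum.

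Of the Id genes, Id2 had 1317, 1616 and 1580 TPM in GFPlo, 942, 1141 and 1031 in GFPmed, and 216, 273 and 228 in GFPhi. The 3 groups did not overlap, and the lowest GFPmed sample was several times the highest GFPhi sample. The means were 1504 ± 163, 1038 ± 99.4 and 239 ± 30.3 (SD, n = 3). The fall from GFPlo to GFPhi was -2.65 on the log2 scale (SE 0.12, adjusted p 5.6e-05), and that from GFPmed to GFPhi was -2.12 (SE 0.12, adjusted p 0.000375). Among the 124 genes called lower in GFPhi against GFPlo, Id2 ranked 12 by size and 3 by p.

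Id3 had 589, 632 and 616 TPM in GFPlo, 650, 786 and 779 in GFPmed, and 1172, 1513 and 1289 in GFPhi. The groups did not overlap, though GFPlo and GFPmed lay close together. The means were 612 ± 21.5, 738 ± 76.3 and 1325 ± 173. The rise from GFPlo to GFPhi was 1.11 (SE 0.11, adjusted p 0.00167), just past the fold limit. That from GFPmed to GFPhi was 0.84 (SE 0.11, adjusted p 0.0111), under that limit. It passed the adjusted p in 18 of 22 settings, the main fit included. It missed it without GFPhi replicate 3, at 0.0535, and under median-of-ratios scaling, at 0.237. Id3 ranked 344 by size and 120 by p among the 387 genes called higher.

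The 2 Id genes thus changed places. On the exonic scale Id3 was 0.298 ± 0.0239 times Id2 in GFPlo, 0.519 ± 0.0275 times in GFPmed and 4.04 ± 0.0829 times in GFPhi (SD, n = 3). Id2 made up 77.0%, 65.9% and 19.8% of the 2 together, with at most 1.4 percentage points of SD in a group. In GFPhi the share lay between 19.5% and 20.1% in the 3 samples, and in GFPlo between 75.4% and 77.9%. Their sum fell less, from 304 ± 27.0 RPKM in GFPlo and 244 ± 26.4 in GFPmed to 189 ± 17.0 in GFPhi. Set against the sum of the 3 E protein genes, the Id sum was 5.71 ± 0.939 times as large in GFPlo, 4.16 ± 0.530 in GFPmed and 2.80 ± 0.20 in GFPhi. No sample of one group reached into another. These ratios are of reads per exonic length, so their size depends on the annotated exons, and they give no account of protein.

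**Figure D3:**
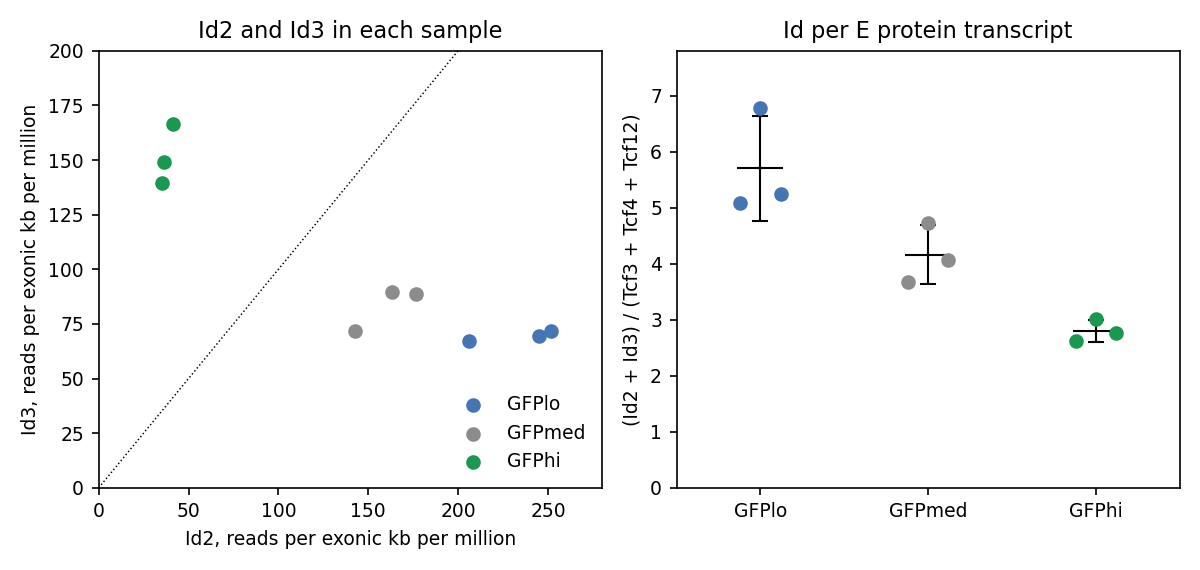
Left, Id3 against Id2 as RPKM over exonic length, 1 point per sample, with a dotted line where both are equal. Right, the sum of Id2 and Id3 divided by that of Tcf3, Tcf4 and Tcf12, with group means and SD (n = 3). The 6 GFPlo and GFPmed samples lie on the Id2 side of the line and the 3 GFPhi samples on the Id3 side, and the ratio on the right falls from 5.71 to 2.80.

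Tcf7 had 560, 556 and 597 TPM in GFPlo, 572, 543 and 454 in GFPmed, and 509, 556 and 502 in GFPhi. GFPlo and GFPhi were apart only by a fraction of 1 TPM, since GFPlo replicate 2 and GFPhi replicate 2 both stood at 556, and GFPmed overlapped both. The log2 difference between GFPhi and GFPlo was -0.13 (SE 0.09, 95% interval -0.34 to 0.08, adjusted p 0.656). The interval leaves out a halving and a doubling alike, with 15855 to 38344 Tcf7 reads per sample behind it.

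Lef1 had 171, 167 and 193 TPM in GFPlo, 146, 149 and 141 in GFPmed, and 85.1, 103 and 99.1 in GFPhi. The 3 groups did not overlap. Means were 177 ± 14.2, 145 ± 4.31 and 95.6 ± 9.25. The log2 difference between GFPhi and GFPlo was -0.88 (SE 0.09, 95% interval -1.09 to -0.68, adjusted p 0.00188), past the adjusted p but under the fold limit. Under median-of-ratios scaling its adjusted p was 0.142, and without replicate 1 of every group, a setting chosen after seeing the data, it was 0.0514. Against GFPmed the difference was -0.60 (adjusted p 0.0187), which missed the threshold when any 1 of the GFPmed samples or GFPhi replicate 3 was left out, the highest adjusted p among these being 0.102. Under median-of-ratios scaling it was 0.571, and 12 of 22 settings passed, the main fit included. The antisense gene Gm43352 overlaps 13.7% of the Lef1 exons, and whether reads were counted by strand is not given in the sources used here. On the exonic scale Tcf7 was 3.33 ± 0.130 times Lef1 in GFPlo, 3.69 ± 0.352 in GFPmed and 5.65 ± 0.479 in GFPhi, with GFPhi apart from both other groups.

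Bach2 had 9.85, 10.7 and 10.9 TPM in GFPlo, 10.3, 10.6 and 8.58 in GFPmed, and 8.51, 10.4 and 8.80 in GFPhi. All groups overlapped. The log2 difference between GFPhi and GFPlo was -0.17 (SE 0.14, 95% interval -0.50 to 0.17, adjusted p 0.739). The antisense gene Bach2os shares 5.40% of the Bach2 exons.

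Satb1 had 753, 749 and 778 TPM in GFPlo, 642, 612 and 554 in GFPmed, and 275, 309 and 295 in GFPhi. Its groups did not overlap, and the spread within a group was small. Means were 760 ± 15.8, 602 ± 45.0 and 293 ± 17.2. The fall from GFPlo to GFPhi was -1.37 on the log2 scale (SE 0.07, adjusted p 7.6e-05), which ranked 66 by size and 6 by p among the 124 genes called lower. From GFPmed to GFPhi it was -1.04 (SE 0.07, adjusted p 0.000834), close to the fold limit: without GFPmed replicate 1 it was -0.99 and without GFPhi replicate 1 it was -0.99, both short of it. Gm37248, a transcript that lies inside the Satb1 span and shares no exonic base with it, differed by -1.31 between the same groups; it is named here after its value was seen.

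**Figure D4:**
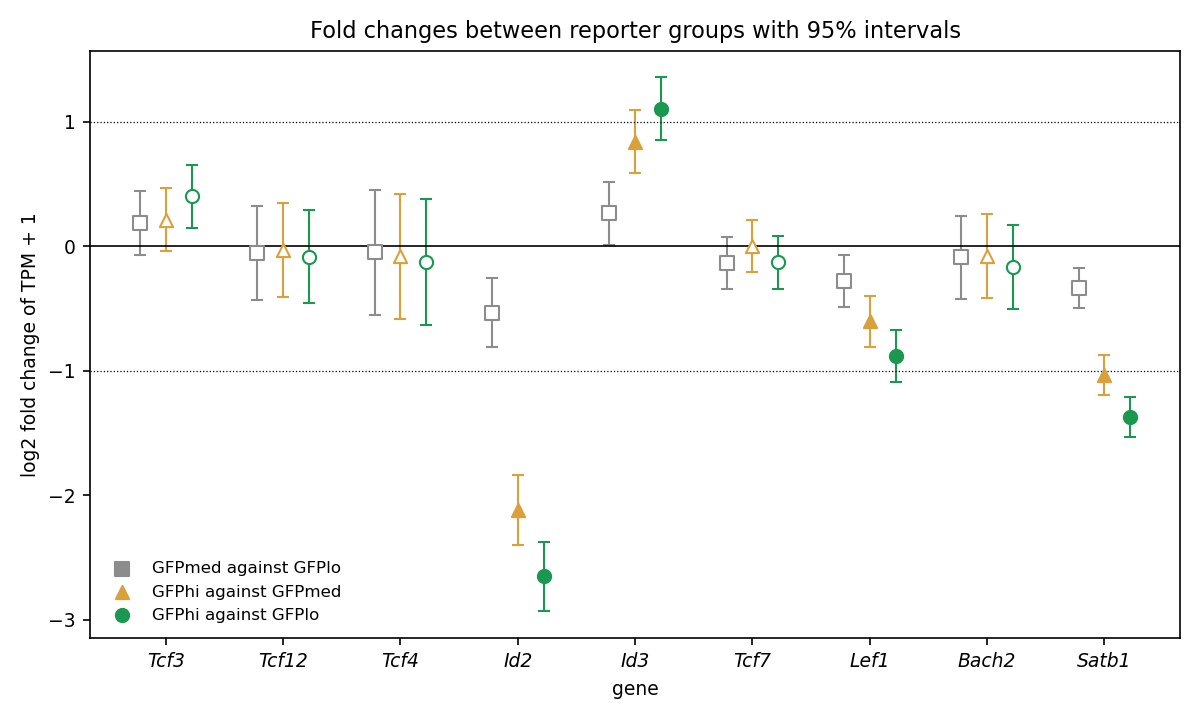
Log2 fold changes of TPM + 1 for the 9 genes in the 3 comparisons, with 95% intervals; filled symbols have an adjusted p of at most 0.05, and dotted lines mark the limit of 1 in either direction. Only Id2, Id3, Lef1 and Satb1 have filled symbols, and for all 4 of them the step from GFPmed to GFPhi is larger than that from GFPlo to GFPmed.

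The middle group allows both steps to be set side by side, although GFPmed enters both. From GFPmed to GFPhi, 0 of the 9 genes were called higher and 2 lower (Id2 and Satb1), where 0.541% and 0.150% of all genes were. By adjusted p alone 1 was higher (Id3) and 3 lower (Id2, Lef1 and Satb1), where 0.899% and 0.609% of all genes were. From GFPlo to GFPmed, limma called 0 of the 9 in either direction at the adjusted p alone, where 0.0749% of all genes were called. The log2 differences at this step were -0.53 for Id2, 0.27 for Id3, -0.28 for Lef1 and -0.34 for Satb1. Each of these 4 had an unadjusted limma p under 0.05 and no overlap of GFPlo and GFPmed. The shares of all genes with such a p or no such overlap at this step were not counted, so these 4 are a description only. In limma-voom with library totals Id2, Lef1 and Satb1 passed that step at adjusted p of 0.00113, 0.00181 and 9.9e-06, and none of the 9 did when scaled by the authors' size factors.

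On the log2 scale GFPmed had covered 20.1% of the full change of Id2, 24% of that of Id3, 24.5% of that of Satb1 and 31.6% of that of Lef1. Whether GFPmed departs from the midpoint of GFPlo and GFPhi was tested directly. For Id2 it lay 0.79 above the midpoint (SE 0.10, adjusted p 0.12) and for Satb1 0.35 above it (SE 0.06, adjusted p 0.263). Id3 lay 0.29 below (SE 0.09, adjusted p 0.854). Lef1 lay 0.16 above (SE 0.08, 95% interval -0.02 to 0.34, adjusted p 0.9996). Limma called 0 of the 9 genes bent, beside 0.0195% of all genes. At an unadjusted p under 0.05 there were 3, and the share of all genes at that limit was not counted. Limma-voom called 2 with library totals and 0 when scaled by the authors' size factors.

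Of 114 further genes of the network that were tested, 12 were called higher and 8 lower between GFPhi and GFPlo. Of all genes tested, 1.26% and 0.404% were. By adjusted p alone 18 were higher and 17 lower, 30.7% of them, where 2.38% of all genes were higher and 1.51% lower. The counts by list below are by adjusted p alone and stand beside these last 2 shares. Their median log2 fold change was -0.07. The lists were written with earlier results of these data known, some genes stand in 2 of them, and a share above that of all genes is not independent evidence about them.

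Among relatives and cofactors of E and Id proteins, 1 of 15 tested genes passed by adjusted p, and 14 did not. Lmo4, a LIM-only adaptor, fell from 28.4 ± 0.274 to 19.9 ± 2.28 TPM (log2 -0.49, adjusted p 0.0422). Of 19 tested genes listed as E protein targets in thymocytes, 2 were higher and 4 lower. Ccr9, a chemokine receptor of thymocytes, fell from 311 ± 18.1 to 60.4 ± 1.61 TPM (log2 -2.35, adjusted p 6.6e-06), and Il7r, the IL-7 receptor chain, from 200 ± 17.9 to 56.1 ± 3.42 TPM (log2 -1.81). Dntt, which encodes the terminal transferase of immature thymocytes, fell from 13.6 ± 1.26 to 4.41 ± 0.670 TPM (log2 -1.43). Gfi1, a zinc-finger repressor, rose from 10.1 ± 1.94 to 37.5 ± 5.83 TPM (log2 1.79, adjusted p 0.00542). The list thus held genes that moved in both directions.

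The Wnt and beta-catenin genes, through which TCF and LEF factors act in many tissues, mostly did not pass the test. Of 27 tested, 0 were higher and 1 was lower, Pygo2, a beta-catenin cofactor, from 302 ± 26.4 to 180 ± 24.8 TPM (log2 -0.75, adjusted p 0.00791). Of 23 tested targets and partners of TCF1 and LEF1 in T cells, 8 were higher and 5 lower. S1pr1, the receptor for thymic exit, rose from 7.65 ± 1.57 to 222 ± 9.60 TPM (log2 4.70, adjusted p 9.9e-06). Klf2, the factor that drives S1pr1, rose from 87.8 ± 9.41 to 537 ± 43.2 TPM (log2 2.60). Kit, a receptor of early progenitors, was at 1.17 ± 0.733 and 11.2 ± 3.24 TPM (log2 2.52), and Myb rose from 8.20 ± 0.528 to 35.4 ± 4.37 TPM (log2 1.98, adjusted p 0.00029).

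Of 22 tested partners and repressed genes of BACH2, 4 were higher and 4 lower. Il2ra, which encodes the CD25 that the gate selected against, rose from 0.665 ± 0.0692 to 9.73 ± 1.57 TPM (log2 2.68). Of the AP-1 genes in the list, only Jun fell, from 13.4 ± 1.91 to 2.95 ± 1.09 TPM (log2 -1.89, adjusted p 0.0101). It had 453 reads over all samples together. Fosl2 rose from 2.56 ± 0.797 to 11.9 ± 4.15 TPM (log2 1.83, adjusted p 0.0168). Batf (log2 0.89, adjusted p 0.0249) and Jund (log2 0.66, adjusted p 0.0461) were higher too. Fos (adjusted p 0.152) and Junb (log2 -0.0015) did not pass. Batf, Jund, Fos and Junb are named after their values were seen. Ccr9 stands in this list too. Of 19 tested SATB1 partners and targets, 6 were higher and 3 lower. The regulatory T cell genes Ctla4 (1.18 ± 0.300 to 13.2 ± 1.17 TPM, log2 2.72) and Ikzf2 (1.55 ± 0.0636 to 15.6 ± 1.13 TPM, log2 2.7) rose, as did the repressor Bcl6 (9.31 ± 1.52 to 37.3 ± 6.82 TPM, log2 1.89). Ctla4 and Il2ra also stand in the regulatory T cell marker list.

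Of the EGR and NAB genes that act upstream of Id3, 1 of 5 tested was higher and 3 were lower. Egr1 fell from 966 ± 32.6 to 569 ± 33.4 TPM (log2 -0.76, adjusted p 0.000544) and Egr2 from 391 ± 4.19 to 209 ± 16.1 TPM (log2 -0.90, adjusted p 0.00129). Egr3 rose from 21.3 ± 2.24 to 40.1 ± 10.1 TPM (log2 0.86, adjusted p 0.0487), close to the threshold. The other that fell was the corepressor Nab2, named after its value was seen, with a log2 fold change of -0.68. Id3 rose in the same samples in which Egr1 and Egr2 fell and Egr3 rose.

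**Figure D5:**
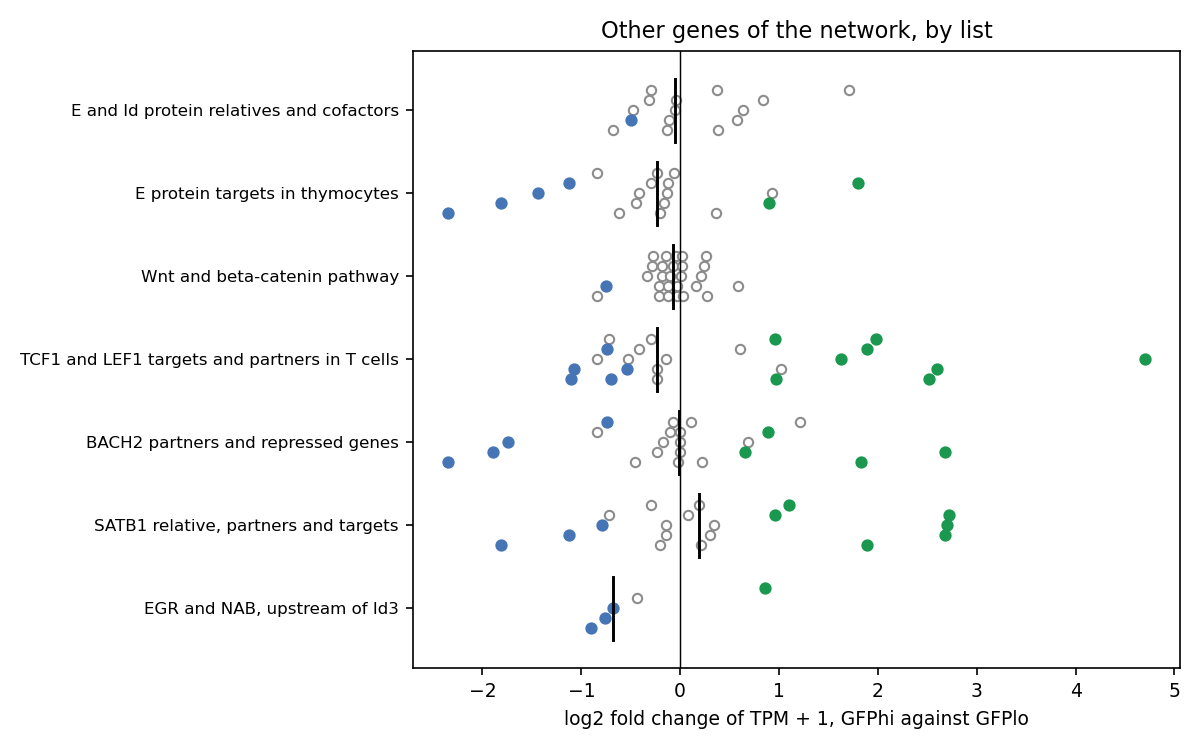
Log2 fold changes between GFPhi and GFPlo of the tested genes of 7 lists, 1 point per gene; filled green points were higher and filled blue points lower at an adjusted p of at most 0.05, open points did not pass, and the black bar is the median of the list. The Wnt and beta-catenin list has 1 filled point, and the targets and partners of TCF1 and LEF1 have filled points on both sides.

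For each of the 4 genes that changed, the 3 other genes with the most similar profile were named, by Pearson correlation of log2(TPM + 1) over the 9 samples among 17362 genes with a mean of at least 5 TPM. Id2 was followed by the chemokine receptor Ccr4 (r = 0.997), the aminotransferase Got1 (0.996) and Ccr9 (0.995). Id3 was followed by Hsdl2 (0.996), the TNF receptor family member Tnfrsf25 (0.990) and Adgre5 (0.988), which encodes CD97. Lef1 was followed by Traf4 (0.995), Dlg4 (0.992) and the clock gene Cry1 (0.990), and Satb1 by Mbp (0.998), the mitotic kinesin Kif23 (0.997) and Zfp281 (0.994). The samples fall into 3 groups that share these differences, so such values describe the profiles only.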

How the data were processed

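Bulk RNA-seq of 9 sorted SP4 thymocyte samples (3 per group, from the labels) was used. The authors made SMART-seq libraries, aligned reads with STAR 2.7.11b to GRCm38 (mm10), dropped duplicate reads, counted the rest per gene and deposited TPM. The authors also deposited each group's mean normalized signal (reads divided by DESeq2 1.34.0 size factors), which was used here only to solve for reads. Their fold changes and adjusted p-values were not used. TPM and group signal together gave whole reads for 41578 genes in every sample (100% within 0.01 of a whole number), while 400 could not be solved. Intervals cover the spread between samples.

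Log2(TPM + 1) was tested with limma 3.58.1 (R 4.3.3), 1 model over 9 samples, eBayes with a trend, two-sided, for genes that reached 1 TPM in 3 or more samples. The code was tested on simulated reads. Exonic lengths came from GENCODE M21 on GRCm38, an earlier release than the study's, with values for 41836 of 41978 genes, and promoters from RefSeq. The members and lists were chosen with earlier results of these data known. From each list of related genes, Egr1 to Egr3 and up to 4 genes passing by adjusted p, by size of change, are named, or the 1 with the smallest p.

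Alternatives were quantile or median-of-ratios scaling, 0.1 as the pseudocount, the filter removed or raised to 5 TPM, a fit to 2 groups alone, eBayes with no trend, each sample omitted in turn, a block for replicate number, limma-voom on reads with library totals or size factors, exonic lengths in the TPM, and no fold limit. Leaving out replicate 1 of every group was added after seeing the data. Expression of same-numbered samples correlated, as deviations from group means, at 0.0122 to 0.224 over 9 pairs, with 1 pair above 0.1. The mean was 0.0609, beside -0.0305 over 18 differently numbered pairs. These values do not settle whether equal numbers mark pairs. The main fit did not take them as pairs, and the block for replicate number did.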

Additional observations from a re-analysis of the deposited data

How the results depend on the processing

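Id2, Id3 and Satb1 were called between GFPhi and GFPlo under each of the 22 settings kept. Their log2 fold changes were -2.75 to -2.55, 1.00 to 1.21 and -1.45 to -1.27. Limma-voom with TMM scaling was also tried but left out of these counts. Apart from Tcf3, it called the same members between those groups. Between GFPhi and GFPmed the number called lower fell from 2 to 1, Id2, under median-of-ratios scaling, limma-voom with size factors and without replicate 1 of every group, and ran from 1 to 2 with samples left out; with no fold limit 1 was higher. The listed network genes called lower, 8 in all, were 17 with no fold limit, 5 under median-of-ratios scaling, 4 under quantile normalization, 3 without replicate 1 of every group and 5 to 8 with samples left out (5 without GFPlo replicate 2). Departures from the midpoint numbered 0, but 1 under quantile normalization or TPM on exonic length and 2 in limma-voom with library totals. The causes were not tested.

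Only log2 fold changes near 0 turned sign. Between GFPhi and GFPlo, quantile normalization gave 0.018 for Tcf4 and 0.021 for Tcf12, size factors gave 0.0019 for Tcf12, and Tcf4 ran from -0.23 to 0.030 with samples left out. Between GFPmed and GFPlo, Tcf4 ran from -0.13 to 0.11 with samples left out and was 0.077 without replicate 1 of every group. Between GFPhi and GFPmed, Tcf12 was 0.022 under median-of-ratios scaling, 0.049 under quantile normalization, 0.043 with size factors, 0.027 without replicate 1 of every group and -0.050 to 0.0027 with samples left out. There Tcf4 was 0.044 and Tcf7 was -0.015 under quantile normalization, Tcf7 was -0.013 with library totals and -0.094 to 0.073 with samples left out, and Bach2 was 0.0071 without replicate 1 of every group.

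With the replicate number as a block, 1 of the 9 genes was higher and 2 were lower between GFPhi and GFPlo, as without it; the block ended 1 call by adjusted p, that of Lef1 between GFPhi and GFPmed (adjusted p 0.0561).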
